A study of Mus musculus with 2 samples.

Results

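The genes encoded in the mitochondrial genome were followed through RNA of the nuclear fraction of mouse bone-marrow-derived macrophages, primary phagocytes grown from marrow. They were taken as every gene whose symbol starts with mt- in the deposited transcript table that names genes beside transcripts. This gave 37 of 55536 annotated genes, of which 13 code for proteins, 2 are ribosomal RNAs (rRNAs) and 22 are transfer RNAs (tRNAs). The macrophages came from C57BL/6J mice and met lipid A, a ligand of Toll-like receptor 4 taken from bacterial endotoxin, more than once: 100 ng/ml for 12 h, a washout of 12 h, and 100 ng/ml again for 50 min. Sex and age were not collected, per the labels. Total RNA of the fraction, which the labels call both nucleoplasmic and nuclear, was sequenced after depletion of ribosomal RNA in 1 group of 2 libraries, named as biological replicates 1 and 2.

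The RNA input was 500 ng in replicate 1 and 1 µg in replicate 2, and its part in any difference between the libraries cannot be told apart from that of the replicate. Both carry the same donor entry and nothing names separate animals or cultures, so every SD and every ratio between the libraries measures a spread that may be technical. No unstimulated, singly stimulated, cytoplasmic or whole-cell library was analysed here, so the values describe levels and not a response to the ligand. With 1 library against 1 there was no test between libraries. The ratios, replicate 1 over replicate 2, carry 95% intervals that cover counting error only.

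The mitochondrial genome is a small circle of DNA transcribed on both strands into long precursors, from which the tRNAs, mostly lying between the other genes, are cut out. Its mRNAs encode core subunits of respiratory complexes I, III, IV and V. Complex II and all other subunits are encoded in the nucleus, as are the polymerase, the processing enzymes and the proteins of the mitochondrial ribosome. Pieces of mitochondrial DNA have also been copied into nuclear chromosomes during evolution, where annotation lists them as pseudogenes, and a read from a stretch that is the same in both places has no single origin by sequence.

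Each library had a gene-level table and an index-based table. The gene-level table was derived from alignments to the transcriptome. The index-based table, made by matching reads to an index of transcripts, lists transcripts, which for mitochondrial genes are 1 per gene. Another table, of transcripts quantified from the alignments, held the same counts and TPM as the gene-level table for 37 of 37 genes within a tolerance of 0.005. TPM, a measure of transcript abundance, divides counts by the length that can be read and scales to a fixed total, so it compares levels between genes per length. The index-based tables held 34650408 counts in annotated genes in replicate 1 and 30887297 in replicate 2. The gene-level tables held 20612114 and 22772087. Macrophage markers, 10 of 10, lay between 26.3 and 1010 mean TPM in the gene-level tables, where no marker of T cells, B cells, NK cells, neutrophils, fibroblasts or erythroid cells exceeded 0.610 mean TPM. The T cell marker Cd3d, at 0.01 mean TPM in them, had 2.88 TPM in the index-based table of replicate 1 and 0.616 in that of replicate 2. Of 3 listed nuclear RNAs, Malat1 had 17537 TPM in replicate 1 and 10607 TPM in replicate 2, and Neat1 had 580 and 699. The third, Rn7sk, had 354442 and 285232.5 TPM, a large part of the fixed total that all TPM values share. In counts scaled over all genes the 3 barely differed between the libraries, with log2 ratios of 0.005 for Malat1, -0.07 for Neat1 and 0.03 for Rn7sk.

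Nuclear copies with nearly the same sequence bear on the values of several of these genes. The 37 transcripts were aligned to all annotated nuclear transcripts in the same orientation, and antisense matches were not searched. At 90% identity or more over 100 bases or more, 17 nuclear genes matched 11 of the 37. The 22 tRNA genes, 59 to 75 bases long, could not reach this length, so the search cannot show whether they have copies. In 7 cases the copy lies in 1 block of 4663 bases on the minus strand, chr1:24611535-24616197 (mm10), which follows the mitochondrial genome from position 6390 to 11042. The copies in it are Gm29216 of mt-Co1, Gm28661 of mt-Co2, Gm10925 of mt-Atp6, Gm28437 of mt-Co3, Gm28438 of mt-Nd3, Gm10222 of mt-Nd4l and Gm28439 of mt-Nd4. All 7 are annotated as unprocessed pseudogenes. Aligned with its gene, Gm28661 was identical over 681 bases, Gm10925 over 678, Gm28437 over 783, Gm10222 over 294 and Gm28439 over 876 of the 1378 bases of mt-Nd4.

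The copy of mt-Nd3 differed from it at 1 of 345 bases, T3C, counted from 1 at the first base of the mitochondrial gene, and the start of both is shown because this base is the only difference over the aligned stretch. Capitals mark the base that differs.
mt-Nd3, chrM:9459-9501, plus strand: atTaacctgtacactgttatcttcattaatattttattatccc
Gm28438, chr1:24613077-24613119, minus strand: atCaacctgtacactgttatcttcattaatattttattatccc

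The copy of mt-Co1 on chromosome 1 covers only the end of the gene, 483 of 1545 bases, and differs there at 1 base, A1066T. A further copy, Gm13340 on chromosome 2, runs the whole length of mt-Co1 at 97.6% identity. The stretch where the chromosome 1 copy begins to follow the gene is shown for all 3. Capitals mark bases that differ between the lines, and in this stretch the chromosome 2 copy differs from the gene by T1056C and T1072C.
mt-Co1, chrM:6381-6433, plus strand: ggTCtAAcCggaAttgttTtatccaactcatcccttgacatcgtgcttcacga
Gm29216, chr1:24616145-24616197, minus strand: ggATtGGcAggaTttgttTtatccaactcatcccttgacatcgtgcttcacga
Gm13340, chr2:22588542-22588594, minus strand: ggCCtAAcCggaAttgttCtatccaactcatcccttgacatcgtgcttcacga

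For mt-Co2 the copy on chromosome 1 is letter for letter the same, while Gm13341 on chromosome 2 matches at 95.9% identity. A stretch of 81 bases is shown in which they can be compared. Capitals mark the bases at which Gm13341 differs, T231C, T255C and T291G.
mt-Co2, chrM:7223-7303, plus strand: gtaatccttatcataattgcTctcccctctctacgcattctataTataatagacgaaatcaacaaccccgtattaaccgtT
Gm28661, chr1:24615275-24615355, minus strand: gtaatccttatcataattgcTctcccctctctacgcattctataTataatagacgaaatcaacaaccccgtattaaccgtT
Gm13341, chr2:22587672-22587752, minus strand: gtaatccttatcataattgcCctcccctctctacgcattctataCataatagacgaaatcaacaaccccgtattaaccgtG

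How much of each gene a read could share was counted in windows of 100 bases. Of the windows in mt-Co3, 99.9% occur unchanged in a nuclear transcript, and the share was 99.5% in mt-Co2 and in mt-Atp6, 98.5% in mt-Nd4l and 97.6% in mt-Nd3. It was 60.8% in mt-Nd4, 30.8% in mt-Co1 and 3.19% in mt-Nd2. It was 0 in mt-Nd1, mt-Nd5, mt-Nd6, mt-Cytb, mt-Atp8, mt-Rnr1 and mt-Rnr2. No unchanged stretch of that length in them is thus shared with an annotated transcript in the same orientation. Shorter or inexact matches are not covered by this count, so it cannot show that their reads were free of ambiguity. Copies on other chromosomes match mt-Nd5 at 95.2% and 92.3% identity, mt-Nd6 at 93.6% and mt-Cytb at 92.9%. Nuclear sequence outside annotated transcripts was not searched, and mt-Atp8 lies within the stretch that the chromosome 1 block follows. Below, genes without a chromosome 1 copy are those without an annotated one. The 10 nuclear copies outside chromosome 1 held 57 counts in all in replicate 1 and 192 in replicate 2 in the gene-level tables. In the index-based tables they held 407 and 234. So few counts went to these copies, but counts given to a copy do not bound the reads shared with it.

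Some mitochondrial genes also overlap each other. The last 43 bases of mt-Atp8, an accessory subunit of complex V, are the first 43 of mt-Atp6, its proton channel subunit. The stretch is shown with the start codon of mt-Atp6 and the stop codon of mt-Atp8 in capitals.
Overlap of mt-Atp8 and mt-Atp6, chrM:7927-7969, plus strand: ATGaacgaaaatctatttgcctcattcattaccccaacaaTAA
The end of mt-Nd4l overlaps the start of mt-Nd4 by 7 bases, in capitals, in another reading frame.
Junction of mt-Nd4l and mt-Nd4, chrM:10147-10193, plus strand: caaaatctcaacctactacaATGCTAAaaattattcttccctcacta
On opposite strands, mt-Nd5 and mt-Nd6 overlap by 14 bases. The strand setting of the counting was not given in the sources used here, and reads of mt-Nd6, the 1 mRNA gene on the minus strand, cannot be told apart from antisense reads of the opposite transcript.

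The 37 genes together took 3.46% of counts in replicate 1 and 2.98% in replicate 2 in the index-based tables (3.22% ± 0.339, SD, n = 2). In the gene-level tables they took 3.73% (exact binomial 95% interval 3.72 to 3.74%) in replicate 1 and 3.25% (3.24 to 3.25%) in replicate 2. These intervals cover counting error only. In bulk RNA, the amount of mitochondria in the fraction and the RNA that each held cannot be told apart. Adding the 7 chromosome 1 copies to the gene-level counts brought the share to 4.67% in replicate 1 and 3.90% in replicate 2. Of the counts of the 7 genes with such a copy and of the copies together, the copies held 18.3% and 13.9% in the index-based tables and 31.0% and 24.4% in the gene-level tables, in replicates 1 and 2.

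Most of the mitochondrial counts came from mRNAs and much of that from a single gene. In the gene-level tables mRNAs were 99.1% of mitochondrial counts in replicate 1 and 91.0% in replicate 2. The catalytic subunit of cytochrome c oxidase, mt-Co1 (chrM:5328-6872), held 46.5% and 52.3% of them, or 1.73% and 1.70% of all counts in the libraries. The large proton-pumping subunit of complex I, mt-Nd5 (chrM:11742-13565), followed with 17.2% and 11.4%.

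Per length, the 13 mRNAs ranked among the highest protein-coding genes of this nuclear fraction. All 13 lay above 28.5 mean TPM, the 90 percentile of 12124 nuclear protein-coding genes that had 10 or more counts in all, which 10% of these exceed by construction. Their median was 1322 TPM, against 3.58 TPM for the nuclear genes, and only 5 nuclear genes lay above that median. The highest of them was Psap, the precursor of the saposins of lysosomes, at 3034 TPM. Again 13 of 13 lay above the 90 percentile in the index-based tables, 12.1 TPM, with a median of 767 TPM against 1.24 TPM over 15402 nuclear genes.

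Of the complex IV genes, mt-Co1 had 4264 TPM in replicate 1 and 2042 TPM in replicate 2 in the index-based tables, and in the gene-level tables at 8108 and 8337 TPM. Its gene-level mean of 8223 ± 162 TPM (SD, n = 2) was the highest of the 37 genes, and the libraries differed by little at that level. The copper-binding subunit mt-Co2 (chrM:7013-7696) stood at 318 and 205 TPM in the index-based tables but at 62.0 and 63.7 TPM in the gene-level tables, the lowest of the 13 mRNAs there. Its gene-level rank among 22028 protein-coding genes was 502 in replicate 1 and 551 in replicate 2. It ranked 40 and 33 of 21951 in the index-based tables. Another core subunit, mt-Co3 (chrM:8607-9390), stood at 744 and 437 TPM in the index-based tables and at 315.5 and 709 TPM in the gene-level tables. The order of the libraries in TPM thus differed between tables. In counts scaled over all genes, mt-Co3 was higher in replicate 2 in both, with log2 ratios of -0.39 (index-based) and -1.21 (gene-level). Over nuclear protein-coding genes, index-based TPM had a median log2 ratio to gene-level TPM of -0.50 in replicate 1 and -1.49 in replicate 2.

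Among the 7 complex I genes, all of which encode subunits of its membrane arm, mt-Nd6 (chrM:13552-14070) was the highest per length. It had 1955 TPM in replicate 1 and 662 TPM in replicate 2 in the index-based tables, and at 3566 and 2675 TPM in the gene-level tables. The genes with no chromosome 1 copy also included mt-Nd5, at 2484 and 1501 gene-level TPM, mt-Nd1 (chrM:2751-3707), at 2451 and 1285, and mt-Nd2 (chrM:3914-4951), at 1268 and 555. All 4 were higher in replicate 1 in both kinds of table, in TPM and in scaled counts. Index-based TPM was lower in replicate 2 for most genes, so the scaled counts are the safer guide there. Their index-based log2 ratios of counts ran from 0.40 for mt-Nd6 to 1.07 for mt-Nd2. With a chromosome 1 copy, mt-Nd4 (chrM:10167-11544) stood at 1553 and 1090.2 gene-level TPM, mt-Nd4l (chrM:9877-10173) at 627 and 1554, and mt-Nd3 (chrM:9459-9806) at 206 and 418.

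Cytochrome b of complex III, mt-Cytb (chrM:14145-15288), had 1046 TPM in replicate 1 and 322 TPM in replicate 2 in the index-based tables and at 2017 and 1337 TPM in the gene-level tables. Of the complex V genes, mt-Atp8 (chrM:7766-7969) had 9131 and 3398 gene-level TPM, the highest protein-coding level of replicate 1. It is 204 bases long, and its deposited effective length, the part of a transcript where fragments can start, was 20.8 bases in replicate 1 and 36.8 in replicate 2. Its counts were 6289 and 4268, so its TPM differed more between the libraries (log2 ratio 1.43) than its counts did (0.63). The counts give mt-Atp8 0.819% and 0.578% of mitochondrial counts, and its TPM rank rests on that short effective length. Its neighbour mt-Atp6 (chrM:7927-8607) stood at 1782 and 565 TPM in the index-based tables and at 272 and 384 TPM in the gene-level tables.

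**Figure D1:**
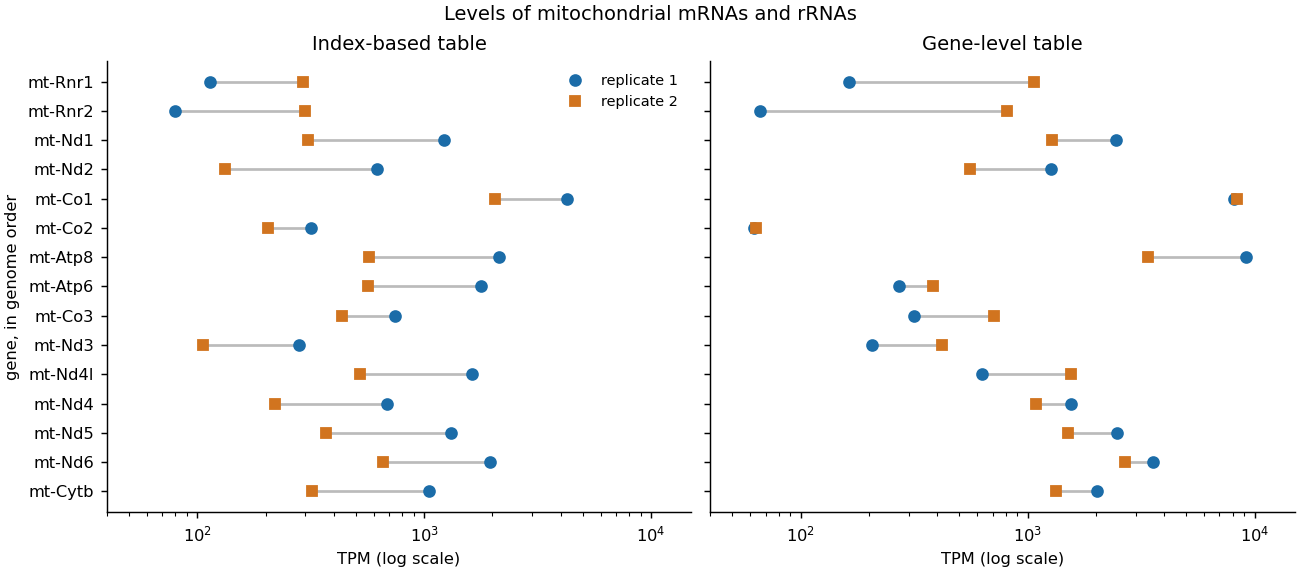
TPM (log axis) of the 13 mRNAs and 2 rRNAs in genome order, in the index-based tables at left and the gene-level tables at right; circles are replicate 1 and squares replicate 2, joined by a line for each gene. mt-Co1 lies at the high end of both panels, mt-Co2 drops to 62.0 and 63.7 TPM in the gene-level panel, and both rRNAs lie further right in replicate 2.

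The counts of genes with a chromosome 1 copy were divided between gene and copy in ways that differed between the tables and between the libraries. In the gene-level tables mt-Co2 had 959.5 counts and its copy Gm28661 had 51625 in replicate 1. In replicate 2 the gene had 1077 and the copy 64094. The mitochondrial gene thus held 1.83% and 1.65% of the pair, whose sequences are identical over 681 bases. In the index-based tables mt-Co2 had 13639 counts and Gm28661 had 59302 in replicate 1, against 15880 and 56391 in replicate 2, which gave the gene 18.7% and 22.0%.

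The split of mt-Atp6 ran the other way in the index-based tables. There the gene had 76008 counts and Gm10925 had 85.2 in replicate 1, and 43495 and 3055 in replicate 2. In the gene-level tables it had 4185 counts beside 48384 for the copy in replicate 1 and 6457 beside 35046 in replicate 2, or 7.96% and 15.6% of the pair. So nearly all counts lay with the mitochondrial gene in one kind of table and most lay with the pseudogene in the other.

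For mt-Co3 the gene held 88.2% of the pair in replicate 1 and 79.8% in replicate 2 in the index-based tables, but 19.2% and 31.0% in the gene-level tables. For mt-Nd3 and mt-Nd4l the index-based tables gave 100.0% to the gene in both libraries. The gene-level tables gave mt-Nd3 31.9% in replicate 1 and 90.5% in replicate 2, and mt-Nd4l 18.3% and 70.0%. For mt-Nd4, which has unshared sequence beyond the copy, the gene held 42.2% and 64.2% in the index-based tables and 50.4% and 79.3% in the gene-level tables. Of the mt-Co1 pair the gene held 100.0% in replicate 1 and 99.2% in replicate 2 in the gene-level tables, since Gm29216 had 3.06 counts in replicate 1 and 3064 in replicate 2.

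Summed over gene and copy, the tables came close to each other again. The ratio of index-based to gene-level counts of the 7 sums was 1.39 to 1.81 in replicate 1 and 1.09 to 1.21 in replicate 2. The 6 mRNAs without a chromosome 1 copy gave 1.32 to 1.69 and 1.09 to 1.21. Of the single genes, mt-Co2 gave 14.2 and 14.8, mt-Atp6 18.2 and 6.74, mt-Nd4l 9.91 and 1.73, mt-Co3 6.46 and 2.81, and mt-Nd3 4.52 and 1.24. In TPM the gene-level sum for mt-Co2 and Gm28661 was 3421 in replicate 1 and 3876 in replicate 2, far above the 62.0 and 63.7 TPM listed for the gene alone. How many of the shared reads came from the mitochondrial gene was not tested.

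**Figure D2:**
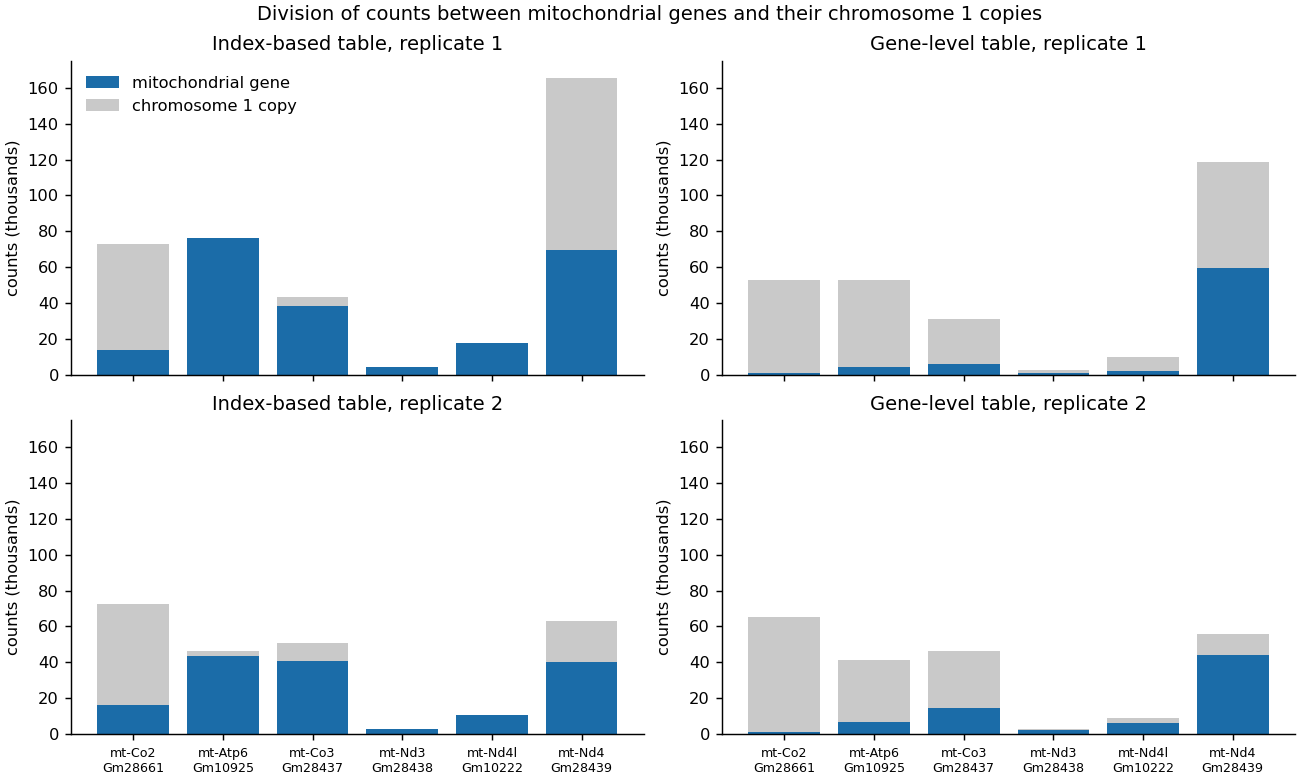
Counts, in units of 1000, of 6 mitochondrial genes (dark), with those of their chromosome 1 copies (light) stacked on top; index-based tables are at left, gene-level tables at right, replicate 1 above and replicate 2 below. The dark part of mt-Atp6 fills the bar in the index-based panels and is a small part of it in the gene-level panels, where Gm10925 holds 48384 and 35046 counts.

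The gene-level tables also list a posterior mean and SD of each count, the authors' own measure of how firmly reads were assigned. For the mRNAs without a chromosome 1 copy the SD was at most 0.000116% of the mean in replicate 1 and 0.000373% in replicate 2. For the mRNAs with one it ran from 0.00107% to 29.4% in replicate 1 and from 0.0694% to 22.8% in replicate 2. The low ends belong to mt-Co1, and mt-Nd4 had 0.528% and 0.613%, so a copy did not always go with a wide SD. For mt-Co2 the posterior mean was 5087 with an SD of 1495 in replicate 1 and 7085 with an SD of 1583 in replicate 2. These means lie well above the listed counts of 959.5 and 1077. For mt-Co3 the posterior mean was 12833 (SD 2191) and 19969 (SD 2502), against listed counts of 5926 and 14418. The posterior SD of Gm28661 was 1494.5 in replicate 1 and 1583 in replicate 2, nearly the same as that of mt-Co2.

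Between the libraries, the mitochondrial genes did not move as a block. A gene was counted as past 2-fold after scaling over all genes, if each library gave it 10 or more counts. Of the 24 genes with enough counts in the index-based tables, 9 were past 2-fold, 4 higher in replicate 1 and 5 higher in replicate 2. Of all 21512 genes in that comparison 7.8% were past 2-fold, 4.3% higher in replicate 1 and 3.51% higher in replicate 2. Of 15 such genes in the gene-level tables, 6 were past 2-fold, 1 higher in replicate 1 and 5 higher in replicate 2. The background there was 5.2% of 13817 genes, with 1.65% higher in replicate 1 and 3.55% higher in replicate 2. It was 1.69% among 2774 genes at 1000 or more gene-level counts in each library, a level that 13 of the 15 reach, and 1.58% among 3618 such genes in the index-based tables. With the 7 copies added to their genes, a step chosen after seeing the data, 4 of 15 were past 2-fold.

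The gene that was higher in replicate 1 by this measure in both tables, mt-Nd2, encodes a membrane subunit of complex I. It had 45434 counts in replicate 1 and 17482 in replicate 2 in the index-based tables, a log2 ratio of 1.07 (95% interval 1.04 to 1.09). In the gene-level tables it had 34493 and 16100, a log2 ratio of 1.17 (1.14 to 1.20). Of the other genes with no chromosome 1 copy, mt-Nd1 had a gene-level log2 ratio of 0.91, mt-Nd5 of 0.73, mt-Atp8 of 0.63, mt-Cytb of 0.58 and mt-Nd6 of 0.31. All 5 were on the same side and none was past 2-fold.

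For genes with a chromosome 1 copy the ratio of the single gene depended on the table. The gene-level log2 ratio was -1.21 for mt-Co3, -1.27 for mt-Nd3 and -1.68 for mt-Nd4l, all past 2-fold and higher in replicate 2. In the index-based tables these were -0.39, 0.21 and 0.46, none past 2-fold. Summed with the copy, the gene-level log2 ratios were -0.52 for mt-Co3, 0.23 for mt-Nd3 and 0.26 for mt-Nd4l. The opposite held for mt-Nd4, a proton-pumping subunit of complex I. Alone it had a log2 ratio of 0.48 in the index-based tables and 0.50 in the gene-level tables, but with Gm28439 it was past 2-fold in both, at 1.09 and 1.16. The copy had 58905 gene-level counts in replicate 1 and 11590 in replicate 2.

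The highest gene, mt-Co1, barely differed between the libraries. It had 496301 counts in replicate 1 and 429217 in replicate 2 in the index-based tables (log2 ratio -0.10) and 356914 and 386180 in the gene-level tables (-0.04, interval -0.05 to -0.03). With its copy, mt-Co2 had a gene-level log2 ratio of -0.24 and mt-Atp6 of 0.41. Once copies were added, mt-Co2 and mt-Co3 lay below 0, the complex I, III and V mRNAs above it, and mt-Co1 close to it. The sign of mt-Co1 is not settled, since its gene-level ratio was 0.0301 with library totals in place of the scaling over genes.

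**Figure D3:**
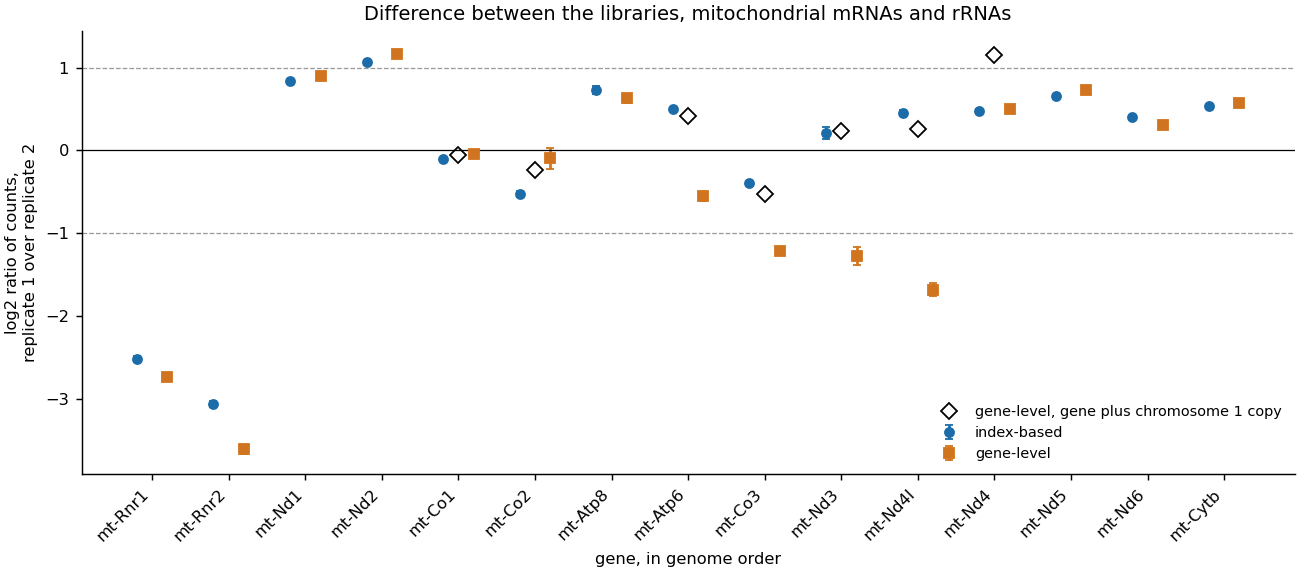
Log2 ratio of counts, replicate 1 over replicate 2, for the 13 mRNAs and 2 rRNAs in genome order; circles are index-based and squares gene-level, with 95% counting intervals, diamonds the gene-level gene plus its chromosome 1 copy, and dashed lines mark 2-fold. The 2 rRNAs lie below -2.5 in both tables, while the squares of mt-Co3, mt-Nd3 and mt-Nd4l lie below -1 and their circles and diamonds do not.

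The rRNAs differed most between the libraries. Both form the core of the mitochondrial ribosome, mt-Rnr1 (chrM:70-1024) in its small and mt-Rnr2 (chrM:1094-2675) in its large subunit, and neither has a window shared with a nuclear transcript. In the index-based tables mt-Rnr1 had 7483 counts in replicate 1 and 34828 in replicate 2, a log2 ratio of -2.53 (interval -2.56 to -2.49). The gene-level counts were 3994 and 27930, a log2 ratio of -2.73 (-2.78 to -2.69), or 6.65-fold. For mt-Rnr2 the index-based counts were 9569 and 64706, a log2 ratio of -3.07 (-3.10 to -3.03). The gene-level counts were 2987 and 38470, a log2 ratio of -3.61 (-3.67 to -3.56), or 12.3-fold.

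The 2 rRNAs were higher in replicate 2, while the mRNAs were mixed. A ratio above 0 was found for 10 of 13 mRNAs and 10823 of all 21512 genes in the index-based tables, and for 7 of 13 mRNAs and 7092 of all 13817 genes in the gene-level tables. The rRNAs made up 1.42% of mitochondrial counts in replicate 1 and 10.8% in replicate 2 in the index-based tables, and 0.909% and 8.99% in the gene-level tables. Per length, mt-Rnr1 stood at 163 gene-level TPM and mt-Rnr2 at 66.0 in replicate 1, a ratio of 2.47, and at 1067 and 808.5 in replicate 2, a ratio of 1.32. The labels say that both libraries were depleted of ribosomal RNA. What that depletion left of each rRNA, and its part in the difference, was not tested. The RNA input differed between the same libraries.

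The tRNAs are seen in only one kind of table. In the gene-level tables all 22 were listed at 0 counts, with a deposited effective length of 0, so these zeros give no limit on their level. In the index-based tables the 22 genes, 59 to 75 bases long, held 1477 counts in replicate 1 and 1753 in replicate 2, or 0.00426% and 0.00568% of counts. Their effective lengths there were 13.9 to 16.6 bases. The labels give a size range of 250-400, with no unit, for both libraries. Whether the reads came from mature tRNA or from longer precursors was not tested.

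The tRNA genes on the minus strand held most of these counts. The 8 genes on the minus strand had a median of 139.5 counts in replicate 1 and 86.5 in replicate 2, against 22.5 and 4.5 for the 14 on the plus strand. They held 77.7% and 96.3% of the tRNA counts. In replicate 1 the ranges overlapped, at 12 to 331 counts for the minus strand and 4 to 67 for the plus strand. In replicate 2 they overlapped only between 14 and 15 counts, at 14 to 967 and 0 to 15. With no strand setting stated, reads of these genes and antisense reads of the long transcript of the other strand cannot be told apart.

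By mean count over the libraries the 3 highest were mt-Ts1, a serine tRNA, mt-Tp, the proline tRNA, and mt-Tc, the cysteine tRNA. Within a library the order differed: mt-Tn, at 183 counts, was above mt-Tp in replicate 1, and mt-Te, at 182, was above mt-Tc in replicate 2. They are shown with mt-Td, the aspartate tRNA that neighbours mt-Ts1 on the opposite strand and had 5 counts in replicate 1 and 0 in replicate 2, which allows up to 3. Capitals mark bases that overlap a neighbouring gene, here the end of mt-Co1.
mt-Ts1, chrM:6870-6938, minus strand: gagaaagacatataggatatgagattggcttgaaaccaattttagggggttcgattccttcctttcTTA
mt-Tp, chrM:15356-15422, minus strand: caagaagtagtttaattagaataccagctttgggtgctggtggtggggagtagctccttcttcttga
mt-Tc, chrM:5192-5257, minus strand: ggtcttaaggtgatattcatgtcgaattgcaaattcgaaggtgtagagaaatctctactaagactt
mt-Td, chrM:6942-7011, plus strand: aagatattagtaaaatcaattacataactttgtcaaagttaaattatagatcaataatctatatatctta

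Counts of mt-Ts1 were 331 in replicate 1 and 967 in replicate 2, a log2 ratio of -1.85 (interval -2.04 to -1.67). Those of mt-Tp were 159 and 300 (-1.22) and those of mt-Te, the glutamate tRNA, 64 and 182 (-1.81). These 3 minus-strand genes were past 2-fold and higher in replicate 2. The asparagine tRNA mt-Tn, with 183 and 52 counts (1.497), the tyrosine tRNA mt-Ty, with 120 and 37 (1.38), and the histidine tRNA mt-Th, with 67 and 15 (1.81), were past 2-fold and higher in replicate 1. Neighbouring tRNA genes of the minus strand, mt-Ta, mt-Tn, mt-Tc and mt-Ty, all had a ratio above 0, while mt-Ts1, mt-Te and mt-Tp, which lie apart from them, had one below 0.

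Of the other tRNAs at 10 or more counts in both libraries, mt-Tc had 252 and 121 counts, mt-Ta, the alanine tRNA, 26 and 15, and mt-Tq, the glutamine tRNA, 12 and 14. None of these was past 2-fold, and the intervals of mt-Ta and mt-Tq include 0. In replicate 1 a further 8 plus-strand tRNAs had between 14 and 50 counts: mt-Tr for arginine, mt-Ts2 for serine, mt-Tl1 and mt-Tl2 for leucine, mt-Tg for glycine, mt-Tk for lysine, mt-Tm for methionine and mt-Ti for isoleucine. In replicate 2 the same genes had 1 to 9. The 5 that stayed below 10 counts in both, mt-Tt, mt-Tf, mt-Tw, mt-Td and mt-Tv, had 4 to 8 in replicate 1 and 0 to 8 in replicate 2. At 10 or more counts, 17 tRNAs were seen in replicate 1 and 9 in replicate 2.

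**Figure D4:**
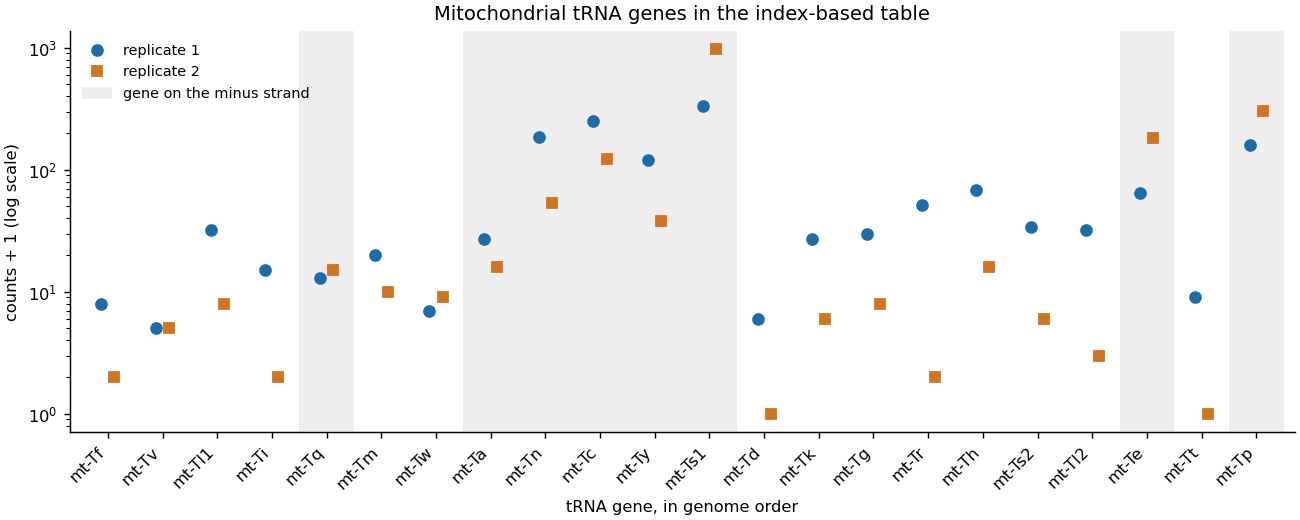
Index-based counts plus 1 (log axis) of the 22 tRNA genes in genome order; circles are replicate 1, squares replicate 2, and grey bands mark genes on the minus strand. The highest points, mt-Ts1 at 331 and 967 counts, lie in a grey band, and 13 of the 14 plus-strand genes lie at or below 50 counts in both libraries.

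Mitochondrial and nuclear subunits of the same respiratory complex stood far apart per length in the gene-level tables of this nuclear fraction. Without a cytoplasmic or whole-cell library, the gaps hold for this fraction and cannot be read as those of whole cells. In complex I the 7 mitochondrial mRNAs had a median of 1322 mean TPM, against 5.05 for 36 nuclear subunit genes, a log2 difference of 8.01. In complex III mt-Cytb stood at 1677 TPM, against a median of 8.27 for 9 nuclear genes (7.65). In complex IV the medians were 512 TPM for 3 mitochondrial and 19.5 for 11 nuclear genes (4.71). In complex V they were 3296 TPM for 2 mitochondrial and 13.8 for 16 nuclear genes (6.69). These differences were taken between medians of log2 values, so in complex V 6.69 is not the log2 ratio of the 2 printed medians. The 2 mitochondrial genes there lay far apart, mt-Atp6 at 328 and mt-Atp8, with its short effective length, at 6264.5 TPM. The 4 genes of complex II, all nuclear, had a median of 10.8 TPM. No nuclear subunit lay above the lowest mitochondrial subunit of its complex, although in complex V Atp5b, the catalytic beta subunit of ATP synthase, reached 63.8 TPM. The lowest mitochondrial value, 62.8 mean TPM, belongs to mt-Co2, which holds 1.83% and 1.65% of the counts of its pair.

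**Figure D5:**
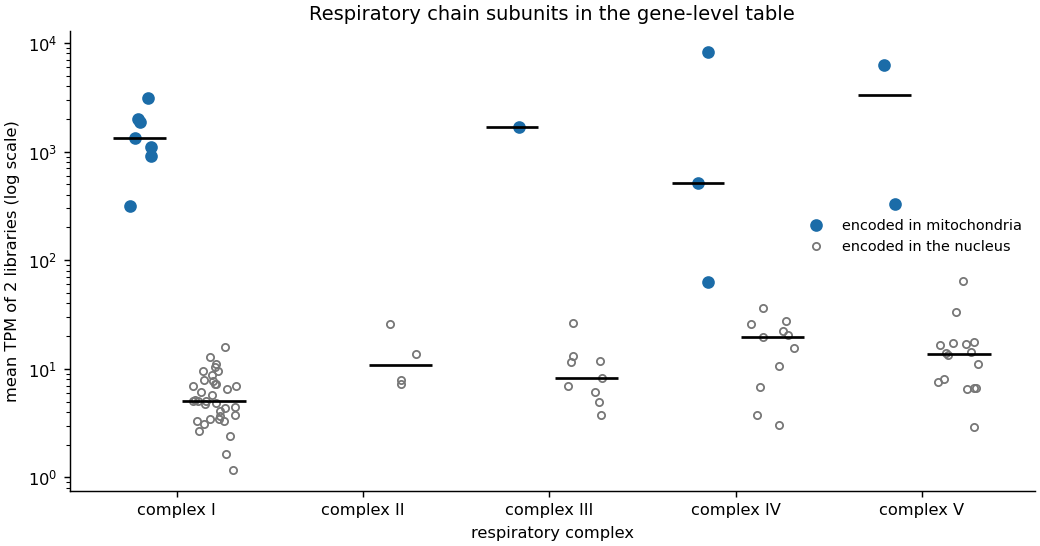
Mean gene-level TPM of 2 libraries (log axis) for each subunit gene by respiratory complex, with genes encoded in mitochondria as filled circles at left and genes encoded in the nucleus as open circles at right; bars are medians. Complex II has no filled circle, and in each of the other 4 complexes every filled circle lies above the open ones.

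Of 76 nuclear subunit genes tested, 0 were past 2-fold and higher in replicate 1, and 3 were higher in replicate 2, against 1.65% and 3.55% of all genes. Their median log2 ratio was -0.25, beside 0.01 over all 13817 genes and 0.31 for the 13 mitochondrial mRNAs. The 3 were Ndufa2, an accessory subunit of complex I, with 76 and 163 counts (-1.02), Ndufa4, of complex IV, with 36 and 77 (-1.01), and Atp5k, the e subunit of ATP synthase, with 72 and 213 (-1.49). In level the highest were Atp5b, Cox4i1, a subunit of complex IV, at 36.2 TPM, and Atp5a1, the alpha subunit of ATP synthase, at 33.1. The lowest was Ndufb6, an accessory subunit of complex I, at 1.18. Only 3 of the 76 lay above the 90 percentile of nuclear protein-coding genes.

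Of 16 genes for maintenance and transcription of mitochondrial DNA with enough counts, 0 were past 2-fold in either direction, against 5.2% of all genes, and the median log2 ratio was 0.04. At so few genes a count of 0 is near that share. All 17 listed genes had a median of 1.33 TPM. The highest were Mterf3, a factor that binds mitochondrial DNA and lowers its transcription, at 17.0 TPM, Polg, the catalytic subunit of the mitochondrial DNA polymerase, at 10.4, and Ssbp1, the single-strand binding protein, at 8.13. Tfam, which packages the genome and starts its transcription, stood at 1.42 TPM, and Mterf2 was the lowest at 0.12.

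Of 25 genes for processing and decay of mitochondrial RNA, 0 were past 2-fold, again near the 5.2% of all genes, and the median log2 ratio was 0.07, at a median level of 3.36 TPM. Fastk, of a family of mitochondrial RNA-binding proteins, stood at 12.3 TPM, Pnpt1, the polynucleotide phosphorylase, at 10.9, and Trnt1, which adds the CCA end to tRNAs, at 9.97. Mrm3, an rRNA methyltransferase, was the lowest at 0.485.

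For proteins of the mitochondrial ribosome the counts past 2-fold can be set against the same 5.2%. Of 48 genes of the large subunit 0 were past 2-fold (median log2 ratio -0.09), and of 29 of the small subunit 1 was, Mrps26, with 67 and 162 counts (-1.20) and a small-subunit median of -0.10. The highest in the large subunit were Mrpl24 at 34.1 TPM, Mrpl52 at 14.2 and Mrpl39, which had 9.36 TPM in replicate 1 and 10.7 TPM in replicate 2, and Mrpl35 was the lowest at 0.6. The highest in the small subunit were Dap3 at 19.1 TPM, Mrps21 at 10.5 and Mrps9 at 8.38, and Mrps28 was the lowest at 0.76.

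The choice of table also moved levels as such. Over nuclear protein-coding genes, index-based TPM was lower than gene-level TPM by a median of 0.50 on the log2 scale in replicate 1 and 1.49 in replicate 2. Relative to that median, the 13 mitochondrial mRNAs had a median of -0.42 in replicate 1 and -0.53 in replicate 2. Past 2-fold relative to it, 4 were higher in the index-based table of replicate 1, namely mt-Atp6, mt-Co2, mt-Nd4l and mt-Co3, and 2 in that of replicate 2, mt-Atp6 and mt-Co2. Of the nuclear protein-coding genes 8.19% and 8.4% were higher. In both libraries mt-Atp8 was lower past 2-fold, as were 0.213% and 0.211% of the nuclear genes. The 4 that were higher all have a chromosome 1 copy, but not every gene with one was higher. In replicates 1 and 2, relative to the nuclear median, mt-Co1 lay at -0.43 and -0.54, mt-Nd4 at -0.68 and -0.82, and mt-Nd3 at 0.94 and -0.48. The part of the copies in these shifts was not tested.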

How the data were processed

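Ribosomal-RNA-depleted total RNA of 2 libraries of 1 group was used. Per the file headers, the authors used mm10 with GENCODE M21 and did not pool replicates. Tool names, versions and the strand setting were not given in the sources used here. Expected counts, as deposited, can be fractional, because reads that match several transcripts are divided among them. TPM and FPKM were deposited by the authors per effective length. The posterior means and SDs of counts are also the authors' deposited values.

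Expected counts were rounded for intervals and scaling. Rows that name no annotated gene (26248 numeric rows, 96 spike-ins and phiX) were left out; they held 0.144% and 0.0810% of gene-level counts. TMM factors from edgeR 4.0.16 (R 4.3.3) scaled the libraries, and 0.5 was added to each count. Intervals are exact and at 95%; the ratio script was checked on simulated data. TPM medians used log2(TPM + 0.1) for differences. Nuclear copies were found with BLAST 2.17.0 on GENCODE M21 transcripts, from which the printed sequences were also read. Python 3.11.15, pandas 2.3.3 and SciPy 1.17.1 were used.

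The genes, lists and comparisons were chosen with earlier results of these data known. Named were all mRNA and rRNA members, tRNAs at 10 or more counts in any table and library, nuclear copies, and in each mitochondrial list (nuclear subunits taken as 1 list) the 3 highest genes, the lowest and those past 2-fold; Tfam, Psap, Cd3d, mt-Td and the other low tRNAs were added after their values were seen. Listed names that matched no gene symbol were left out. Alternatives covered the table, the total, scaling, count minimums, pseudocounts, the unit and leaving out a library.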

Additional observations from a re-analysis of the deposited data

How the results depend on the processing

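Of 77 alternatives to 14 results, 58 left the value within its spread (counts within 1.5 times) and 19 moved it. Several of the 58 could hardly move, so their number does not measure how firm the results are. For the 2 shares, the mean of 2 libraries always lies within their SD of either library. Transcripts quantified from the alignments had the same values for 37 of 37 genes. Count minimums and added counts were small beside the counts of the 15 genes detected. Counts of 4 and 9 past 2-fold, beside 6, fell within the limit of 1.5 times. The median log2 ratio between libraries and the index-based over gene-level ratio changed sign, as given here. The mean share of counts, 3.49%, was 4.71% of protein-coding and mitochondrial genes alone and 4.28% with chromosome 1 copies added, and 3.25 to 3.73% when leaving out a library. The mean share of TPM, 2.87%, was 1.35% in the index-based tables, 13.4% of protein-coding and mitochondrial genes and 4.02% with copies. Genes detected, 15, were 24 in the index-based tables. The median log2 ratio, -0.04, was 0.0301 with library totals, -0.0546 with a median ratio over genes, 0.46 in the index-based tables and 0.31 with copies, so its sign is not settled. The median mRNA level, 1322 TPM, was 767 in the index-based tables, 2064 in FPKM, 2879 with copies, 1930.1 over mRNAs without a copy, and 1285 to 1553 when leaving out a library. The rRNA over mRNA log2 difference, -1.35, was -3.90 to -0.47 when leaving out a library. The mitochondrial over nuclear subunit log2 difference, 7.49, was 8.61 with copies and 7.39 to 7.83 when leaving out a library. The index-based over gene-level log2 ratio, -1.47, was 0.43 in counts, and -2.02 to -0.92 when leaving out a library. The count past 2-fold, 6, was 9 at 1.5-fold, 9 in the index-based tables and 4 with copies. Adding copies or leaving out genes with a copy was chosen after seeing the data. The cause of these moves was not tested.

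No paired analysis was possible because there is 1 group. With 2 libraries an SD is itself poorly known. For mt-Co2, mt-Atp6, mt-Co3, mt-Nd3 and mt-Nd4l the division of counts between gene and copy differed between the tables. The parts of that division and of depth in their values were not tested. In replicate 2, 9 of 22 tRNAs had 10 or more counts, and what limits them was not tested. Counts of PCR-amplified reads are not independent molecules.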
